A study of Mus musculus with 23 samples.

Results

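The phagocyte NADPH oxidase was followed through 6 genes, Cybb, Cyba, Ncf1, Ncf4, Rac1 and Rac2, in sorted mouse neutrophils and in whole lung. They were chosen by name as subunits of the enzyme and matched by NCBI gene identifier, and all 6 were found among the 21878 genes of the sorted neutrophil tables and among the 55335 genes of the whole-lung table. All 6 passed the filter on low values in every comparison.

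The oxidase moves electrons from NADPH across a membrane to oxygen and makes superoxide, the first product of the neutrophil respiratory burst. Its catalytic core, flavocytochrome b558, is a membrane heterodimer of gp91phox (encoded by Cybb) and p22phox (Cyba), and much of it is stored in the membranes of specific granules. In resting cells p47phox (Ncf1) and p40phox (Ncf4) wait in the cytosol, and on activation they join the core together with a GTP-bound Rac GTPase. Rac2 is the Rac found mainly in hematopoietic cells, whereas Rac1 is present in most cell types and also drives actin remodelling. Loss of gp91phox, p22phox or p47phox causes chronic granulomatous disease in humans.

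RNA-Seq libraries of 3 experiments were used. In the tissue comparison, neutrophils were sorted from lung, peripheral blood (PB) and BM of WT mice, with 3 libraries each. The Piezo1 experiment compared Piezo1-cKO neutrophils with WT ones in PB and in lung, with 2 libraries per tissue and genotype. Whole lungs of mice treated with an antibody to Ly6G (neutrophil-depleted) or with an isotype antibody (control) gave 3 libraries each.

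Mice were on the C57BL/6J background, of either sex, and generally 7 to 12 weeks old. Sorting was for CD45+CD11b+Ly6G+ cells, from perfused lungs where the organ was lung. By the study's general methods, lung tissue was digested with collagenase and DNase, a step not described for blood or BM. A negative selection kit ahead of sorting is named for PB and lung, and not for BM. Differences between tissues cannot be told apart from differences in this handling. Piezo1-cKO mice carried Piezo1 alleles with floxed exons 20 to 23 and Vav1-iCre, which is active in all hematopoietic cells and not in neutrophils alone. The antibody to Ly6G was given 24 h, or 24 and 48 h, before analysis. Age and schedule are those of the study's general methods, and for the whole-lung libraries in particular neither was stated in the labels. The study's text speaks of depletion at an early age just before its whole-lung sequencing. The whole-lung mice may therefore have been younger than 7 to 12 weeks. The study describes the replicates of the tissue comparison as separate mice. For the other experiments the labels do not say whether libraries of a group came from separate animals, so there p-values measure the spread between these libraries, which may be technical.

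Values are FPKM, read fragments scaled to transcript length and to the mapped reads of the library, as deposited. Differences are given on the scale of log2(FPKM + 1) and were tested with limma-trend, with Benjamini-Hochberg adjustment over all genes tested. A DEG had an adjusted p below 0.05 and a log2 difference beyond 1 in either direction. Reads assigned to genes, as recovered from the FPKM, numbered 16502148 to 19330773 per library in the tissue comparison. In the Piezo1 experiment they numbered 9621120 to 15034817, and for the whole-lung libraries they were not recovered. PB replicate 3 of the tissue comparison stood apart from the other PB libraries, with a chi-square per degree of freedom of 30.7 and 51.9 against them, where the other pair gave 5.39. The neutrophil markers S100a8, S100a9, Csf3r and 5 others were all detected in the sorted groups. Mpo, Elane and Ctsg, which mark the earliest granulocytic stages, stayed under an FPKM of 1 in all sorted libraries. Prtn3, a primary granule protease gene, did not, with means of 1.498 in BM, 2.204 in PB and 1.234 in lung of the tissue comparison. Mki67 and Top2a, genes of dividing cells, had means of 16.18 and 15.83 in BM. They were at 0.0524 and 0.0627 in PB and 1.455 and 0.139 in lung. The share of dividing precursors in the BM sort was not tested. Piezo1 itself had 3 to 10 reads per library in the Piezo1 experiment, WT included, so the deletion could not be checked in these tables.

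Scaling matters for any statement on lung. The median gene lay 0.54 lower in lung than in PB, 0.70 lower in lung than in BM and 0.12 lower in PB than in BM on the log2 scale. For lung versus PB, 587 genes were higher and 1476 lower as deposited, against 920 and 466 after the FPKM of each library were rescaled by the median ratio between libraries. For lung versus BM the split was 812 and 2965 as deposited and 1563 and 1174 after rescaling. Directions that turn with this rescaling are named beside each gene.

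Promoter windows were held in the RefSeq table for 3 of the 6 genes, and they are shown because these 3 genes, 2 of them partners in flavocytochrome b558, had tissue patterns that differed in size. Each run gives the 250 bases before the RefSeq transcription start (GRCm38.p6), 5′ to 3′ on the gene's strand, the minus strand in each case. For Cybb the start is that of a transcript that begins inside the gene's full RefSeq span, not at the outer end of that span. Capitals mark GAAA, any 2 bases and GAAA again, read on either strand, a pattern bound by interferon regulatory factors. The Cybb window spans chrX:9469325-9469574, the Cyba window chr8:122432941-122433190 and the Ncf1 window chr5:134229626-134229875.
Cybb: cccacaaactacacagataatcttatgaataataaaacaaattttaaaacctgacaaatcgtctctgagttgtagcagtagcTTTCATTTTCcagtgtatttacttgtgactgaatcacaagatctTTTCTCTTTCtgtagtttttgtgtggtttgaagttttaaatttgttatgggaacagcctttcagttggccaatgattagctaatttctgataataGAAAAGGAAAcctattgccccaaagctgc
Cyba: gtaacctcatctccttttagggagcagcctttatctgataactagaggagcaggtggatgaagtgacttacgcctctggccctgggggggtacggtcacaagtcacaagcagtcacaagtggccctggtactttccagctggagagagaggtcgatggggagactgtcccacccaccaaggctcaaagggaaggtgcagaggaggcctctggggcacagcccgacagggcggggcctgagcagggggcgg
Ncf1: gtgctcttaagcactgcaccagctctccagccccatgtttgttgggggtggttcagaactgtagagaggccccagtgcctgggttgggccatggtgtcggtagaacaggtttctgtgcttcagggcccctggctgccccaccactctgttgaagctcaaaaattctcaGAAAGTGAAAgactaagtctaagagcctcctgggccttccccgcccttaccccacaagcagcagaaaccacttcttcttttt

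The pattern stood at 3 places in the Cybb window, with first bases at -168, -124 and -29 from the start, and at 1 place in the Ncf1 window, at -82, and it was not in the Cyba window. Among 32851 mouse promoter windows of the same length, 2.98% held it. The letters GAGGAA, 1 strict form of the site bound by PU.1, were in none of the 3 runs, against 23.3% of all windows, and stood once after the Cybb start, at +10. Shorter or looser forms of that site were not searched for, so the runs may hold some. The C/EBP pattern TTGCNNAA was likewise in none, against 9.56% of all windows. The matches of the different patterns did not overlap.

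Cybb had by far the widest range among the 6 genes. Its FPKM was 508, 508 and 516 in the BM libraries, 16.6, 15.6 and 23.6 in PB, and 16.9, 15.4 and 16.1 in lung. BM therefore stood well above both other tissues in every library, and PB and lung overlapped. From BM, Cybb was 27.5-fold lower in PB (log2 difference -4.73, SE 0.14, 95% CI -5.04 to -4.41, adjusted p = 4.51e-08) and 31.7-fold lower in lung (-4.90, SE 0.03, 95% CI -4.98 to -4.83, adjusted p = 1.10e-14). Between lung and PB the difference was -0.17 with a 95% CI of -0.50 to 0.15 (adjusted p = 0.274). That small difference rested on PB replicate 3, without which it was 0.00, and it turned to 0.42 (adjusted p = 0.0361) after rescaling. Cybb lies at chrX:9435252-9487766 on the minus strand.

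The drop of Cybb from BM moved with the transcripts of immature neutrophils. The summed FPKM of 10 immature neutrophil markers, dominated by the granule genes Camp, Ltf, Ngp and Chil3, was 36647 to 37780 in BM, 556 to 792 in PB and 605 to 629 in lung. Monocytes also express Cybb, and 12 markers of monocytes and macrophages summed to 732 to 879 in BM, 254 to 303 in PB and 188 to 194 in lung. Most of the BM sum was Ly6c2, at 660.5. Ear2 was at 59.9 in BM, 1.18 in PB and 0.69 in lung, with log2 differences from BM of -4.82 and -5.18. C1qa, C1qb and C1qc read 4.45, 5.23 and 3.49 in BM and 0.64, 0.76 and 0.26 in lung, and were lower still in PB. Csf1r was lower in BM (42.3) than in PB (132.6) or lung (97.4), as was Adgre1 (9.90, 29.7 and 26.8). Marco was at or near 0 in all 3 tissues. The part of these cells in the Cybb difference was not tested. In bulk samples, fewer cells with a transcript and less of it per cell cannot be told apart.

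Cyba, the stabilising partner of Cybb in the membrane, changed far less. Its FPKM was 947, 915 and 909.8 in BM, 590.2, 568 and 686 in PB, and 466, 435 and 445 in lung. The 3 tissues did not overlap, and BM was highest and lung lowest. Relative to BM, Cyba was lower by a log2 difference of -0.59 in PB (SE 0.08, adjusted p = 0.000212) and of -1.04 in lung (SE 0.03, adjusted p = 1.50e-10), the second a DEG. After rescaling, the lung versus BM difference shrank to -0.21 and was no longer a DEG. Lung versus PB gave -0.45 (adjusted p = 0.000776), which turned to 0.17 (adjusted p = 0.122) after rescaling. The gene lies at chr8:122424771-122432940 on the minus strand.

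Because Cyba and Cybb pair as one heterodimer, their ratio within a library was also taken, which no scaling of libraries can alter. The Cyba to Cybb ratio of FPKM was 1.76 to 1.86 in BM, 29.0 to 36.5 in PB and 27.6 to 28.2 in lung. The ratio was thus far lower in every BM library than in any library of the other tissues. Cybb made up 13.6% to 13.9% of the summed FPKM of the 6 genes in BM, 0.800% to 1.03% in PB and 0.786% to 0.837% in lung. BC017643, listed under its older symbol and now called Cybc1, encodes the chaperone that the heterodimer needs in the endoplasmic reticulum. It read 45.4, 44.8 and 45.1 in BM, 47.9, 49.5 and 53.5 in PB, and 14.4, 16.2 and 16.7 in lung. It did not follow Cybb from BM to PB (log2 difference 0.15, adjusted p = 0.0373) and was lower in lung than in PB (-1.62, adjusted p = 3.26e-07).

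**Figure D1:**
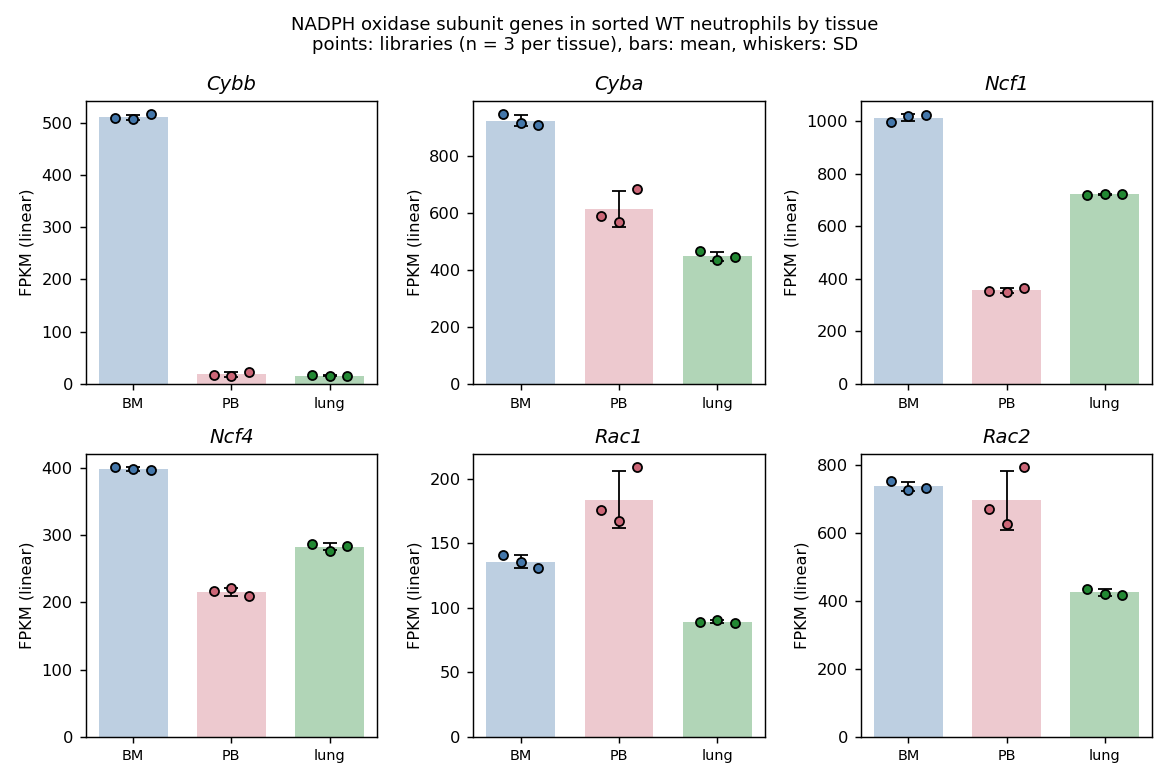
FPKM (linear axis from 0, scaled per gene) of the 6 subunit genes in BM, PB and lung of the tissue comparison, with 1 point per library, a bar for the mean and whiskers for the SD (n = 3). Cybb fell from about 511 in BM to 18.6 in PB and 16.1 in lung, Ncf1 was lowest in PB, and Rac1 was highest in PB.

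Ncf1, whose product p47phox is phosphorylated to start assembly, had its lowest level in PB. Its FPKM was 998, 1018 and 1023 in BM, 353, 349.8 and 365 in PB, and 719, 724 and 723 in lung. The 3 tissues did not overlap. Ncf1 was 2.85-fold lower in PB than in BM (log2 difference -1.51, SE 0.05, adjusted p = 8.39e-08) and 2.03-fold higher in lung than in PB (1.02, SE 0.05, adjusted p = 3.78e-07), both DEGs. After rescaling, the lung versus PB difference was 1.64, and it stayed between 1.01 and 1.04 when any one library was left out. Lung versus BM gave -0.49 (adjusted p = 1.01e-09) as deposited and 0.35 after rescaling, so whether lung stood below or above BM depended on the scaling. Ncf1 lies at chr5:134220053-134229628 on the minus strand.

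Ncf4, the gene of p40phox, which binds a membrane phosphoinositide and helps keep the assembled enzyme active, had the same order of tissues as Ncf1 over a narrower range. Its FPKM was 401, 398 and 397 in BM, 216, 221 and 209.5 in PB, and 288, 277 and 284 in lung. The tissues again did not overlap. Ncf4 differed from BM by -0.88 in PB (SE 0.05, adjusted p = 1.08e-06) and was 0.39 higher in lung than in PB (SE 0.05, adjusted p = 0.000109). Rescaling raised the lung versus PB difference to 1.01, past the threshold for a DEG, and turned lung versus BM from -0.49 to 0.34. Ncf4 lies at chr15:78244164-78262582 on the plus strand.

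Within a library, levels of these cytosolic subunits were also set against each other. The Ncf1 to Ncf4 ratio was 2.49 to 2.58 in BM and 2.50 to 2.61 in lung, which overlapped, and 1.58 to 1.74 in PB. Ncf1 and Ncf4 therefore stood in like proportion in BM and lung, and in another in PB.

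Rac1 was highest in PB. Its FPKM was 141, 135 and 131 in BM, 175, 167 and 209 in PB, and 89.2, 90.3 and 88.3 in lung. The 3 tissues did not overlap. Rac1 was 0.43 higher in PB than in BM (SE 0.09, adjusted p = 0.00224) and 2.06-fold lower in lung than in PB (log2 difference -1.03, SE 0.08, adjusted p = 8.83e-06). The latter was a DEG only as deposited, at -0.41 (adjusted p = 0.00514) after rescaling, and without PB replicate 3 it was -0.93. Lung versus BM was -0.60 and turned to 0.23 after rescaling. Rac1 lies at chr5:143505481-143528031 on the minus strand.

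Rac2, the predominant neutrophil Rac, was above Rac1 in every sorted library. Its FPKM was 751, 726 and 731 in BM, 668, 625 and 793 in PB, and 436, 419.9 and 417 in lung. The BM and PB libraries overlapped, with a log2 difference of -0.09 (95% CI -0.29 to 0.12, adjusted p = 0.389), which became -0.19 (adjusted p = 0.000947) without PB replicate 3 and 0.04 after rescaling. Lung was lower than PB by -0.70 (SE 0.09, adjusted p = 0.000106) and lower than BM by -0.79 (SE 0.02, adjusted p = 2.67e-10), with -0.08 and 0.04 after rescaling. The Rac2 to Rac1 ratio within a library was 5.34 to 5.58 in BM, 3.75 to 3.81 in PB and 4.65 to 4.88 in lung, so the mix of the GTPases separated the tissues whatever the scaling. Rac2 lies at chr15:78559169-78572783 on the minus strand.

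Counted together, 2 of the 6 genes were DEGs between PB and BM (Cybb and Ncf1, both lower), where 22% of the 8237 genes tested were DEGs and 14.1% were lower. Between lung and BM it was 2 of 6 (Cybb and Cyba, both lower) against 45.9% of 8236 genes, 36% being lower. Between lung and PB it was 2 of 6 (Ncf1 higher and Rac1 lower) against 27.2% of 7577 genes, 7.75% being higher and 19.5% lower, and after rescaling the 2 DEGs were Ncf1 and Ncf4, both higher, against 18.3% of all genes, 12.1% being higher. On the adjusted p alone the counts were 5, 6 and 5 of 6, against 73.1%, 92.6% and 85.5% of all genes. The members' median log2 difference was -0.74 for PB versus BM, where all genes had -0.12. It was -0.70 for lung versus BM and -0.31 for lung versus PB, where all genes had -0.70 and -0.54. These comparisons share libraries and are not independent of each other.

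**Figure D2:**
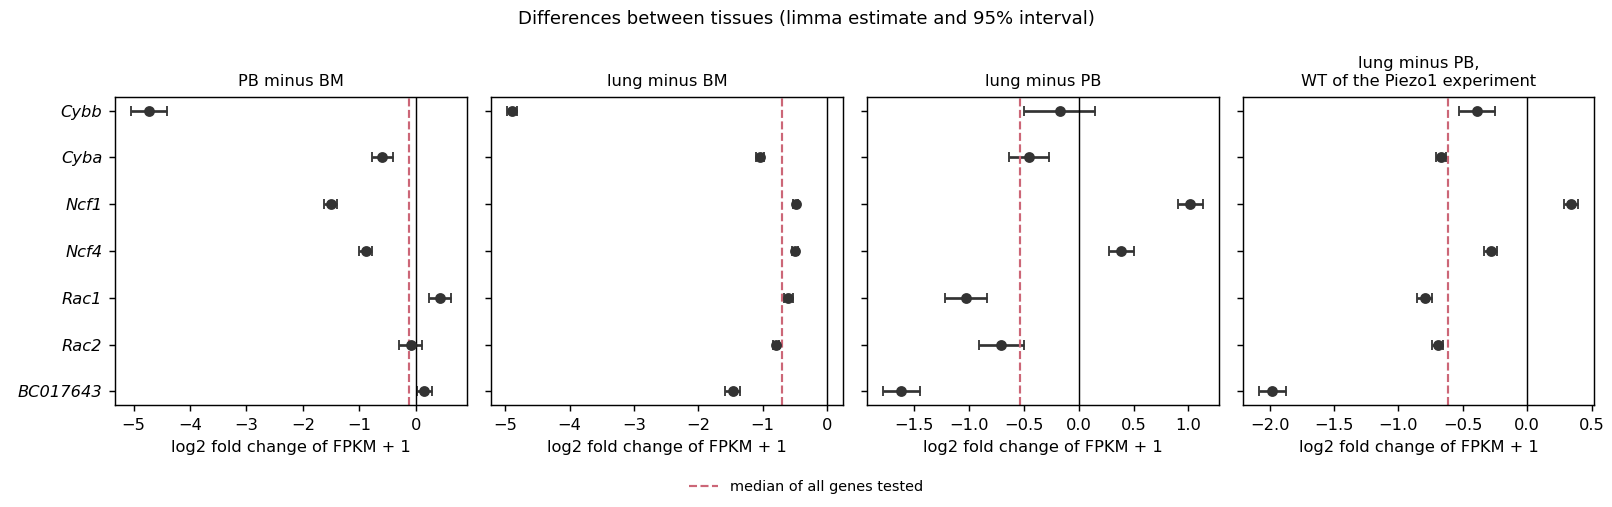
Log2 difference of FPKM + 1 with its 95% CI for the 6 subunit genes and BC017643, in the tissue comparison and, in the last panel, in WT of the Piezo1 experiment, with a dashed line at the median of all genes tested. Cybb at -4.73 and -4.90 against BM lay far from that median, while Rac2 at -0.09 for PB versus BM had an interval that held 0.

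The order of the subunits within a library was the same in all libraries of a sorted group. In BM it ran Ncf1, Cyba, Rac2, Cybb, Ncf4, Rac1, in PB Rac2, Cyba, Ncf1, Ncf4, Rac1, Cybb, and in lung Ncf1, Cyba, Rac2, Ncf4, Rac1, Cybb. As group ranges, Rac2 and Cyba overlapped in PB and in lung, Rac1 and Ncf4 in PB were barely apart (up to 208.9 and from 209.5), and all other neighbours were separate in the 3 tissues. FPKM are per length, so these levels can be set beside each other, although the transcript length that stood behind them differed from 759 bases for Cyba to 4804 for Cybb.

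The genes whose pattern over the 9 libraries was most like each subunit were found by Pearson correlation of log2(FPKM + 1) among 5108 genes with a mean FPKM of at least 5. The 9 points are 3 tissues, so they share tissue and scaling, and the values are descriptions. Cybb was most like Ltf (0.9997), Chil3 and Camp (both 0.9995), which encode lactoferrin, a chitinase-like protein and cathelicidin and are granule or secreted products of the myelocyte stage. Over the 8 libraries of the Piezo1 experiment the same genes gave 0.966, 0.968 and 0.950. Cyba was most like Pgk1 and Ldha (both 0.998), enzymes of glycolysis, and Capns1 (0.998). Ncf1 was most like 1810055G02Rik (0.999), Pnpla8 (0.998) and Trp53inp2 (0.997).

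For the remaining subunits the likeness carried over unevenly. Ncf4 was most like F5 (0.996), Adgrg3 and Plscr1 (both 0.995), and in the Piezo1 experiment F5 gave -0.908. Rac1 was most like Gpank1 (0.997), Arf3 (0.996) and Mrfap1 (0.995), of which Gpank1 gave 0.997 and Arf3 0.0986 in the Piezo1 experiment. Rac2 was most like Itm2b (0.999), Gsn (0.998), which encodes the actin-severing protein gelsolin, and Arl6ip1 (0.997), with 0.982, 0.936 and 0.987 in the Piezo1 experiment. Among the subunits, Ncf1 and Ncf4 were the most alike pair over the 9 tissue libraries (0.960), and Ncf1 and Rac1 the least (-0.573). Over the 8 libraries of the Piezo1 experiment the same pairs gave -0.898 and -0.815, so the likeness of Ncf1 and Ncf4 was not seen there.

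Other genes of the pathway were read from lists chosen by function. Their counts are to be set against those of all genes. As deposited, 22% of all genes were DEGs for PB versus BM, 45.9% for lung versus BM and 27.2% for lung versus PB. Lower DEGs made up 14.1%, 36% and 19.5% of all genes in that order, and 647, 812 and 587 genes were higher DEGs. After rescaling, 1780 of 8237, 2737 of 8236 and 1386 of 7577 genes were DEGs, of which 774, 1563 and 920 were higher. Of 5 partners of the oxidase, 2 were DEGs between PB and BM. Hvcn1, the voltage-gated proton channel that carries charge out of the cell while the oxidase works, fell from a mean FPKM of 42.3 in BM to 1.70 in PB (log2 difference -4.01, adjusted p = 2.54e-08). Arhgdib, the guanine nucleotide dissociation inhibitor that holds Rac in the cytosol, fell from 1479 to 574 (-1.37). Between lung and BM these 2 genes fell by 3.49 and 2.16 on the log2 scale, and BC017643 by 1.46, as the 3 DEGs of that list. Between lung and PB, BC017643 was the 1 DEG of the 5. After rescaling, Hvcn1 and Arhgdib were still lower DEGs in lung versus BM, BC017643 was not, and Arhgdia (1.33) was a higher one.

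Of 10 genes tested of enzymes that supply NADPH, the electron donor of the oxidase, 5 were DEGs between PB and BM, all lower, and 8 between lung and BM, all lower. Of all genes, 14.1% and 36% were lower DEGs in those comparisons. The list's median log2 difference was -0.96 for PB versus BM, where all genes had -0.12, and -2.11 for lung versus BM, where all genes had -0.70. By the adjusted p alone 8 were lower and 2 higher in PB, the latter Taldo1 (0.66), the transaldolase gene, and Nadk (0.23), the cytosolic NAD kinase gene, and after rescaling these 2 also stood above BM in lung, at 0.73 and 0.81. Tkt, a transketolase of the pentose phosphate pathway, went from 492.5 in BM to 123 in PB (-2.01) and 57.3 in lung, and Rpe, the epimerase of that pathway, from 17.7 to 3.99 (-1.90). Against BM in lung, Idh1 (-4.09), the cytosolic isocitrate dehydrogenase, and Tkt (-3.08) fell most. Between lung and PB, 5 of 10 were DEGs, led by Idh1 (-2.38) and H6pd (-1.72), against 27.2% of all genes. After rescaling, the counts of DEGs were 5, 6 and 2.

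Genes that handle superoxide and peroxide moved both ways. Between lung and PB, 3 of 13 rose and 1 fell, against 7.75% and 19.5% of all genes. Sod2, the mitochondrial superoxide dismutase, went from 3.81 to 85.7 (log2 difference 4.17) and Txnrd1, the cytosolic thioredoxin reductase, from 16.6 to 254 (3.86). Gpx1, a glutathione peroxidase, fell from 678 to 264 (-1.35) and was not a DEG after rescaling. In lung versus BM, Sod2 (4.25) and Txnrd1 (3.70) rose and 5 of 14 fell, with Cat (-2.05), the catalase gene, and Prdx1 (-1.43) lowest. Of these 5, Cat alone was a DEG after rescaling, and Sod1 (1.78) joined the rises. PB versus BM had 1 rise, Sod1 (1.02), and 3 falls, led by Cat (-1.72) and Prdx6 (-1.21).

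Kinases upstream of the oxidase gave 7 lower DEGs of 15 between lung and PB, led by Irak4 (-1.62) and Pik3cd (-1.44), against 19.5% of all genes. After rescaling, Irak4 alone was still a DEG on that side, and Syk (1.42) was a higher one. In lung versus BM, 1 of 15 rose, Syk (1.51), and 5 fell, led by Mapk3 (-1.84) and Pik3cg (-1.63), where 36% of all genes fell. After rescaling, Mapk3 alone was a lower DEG, and Syk (2.34) and Akt2 (1.18) were higher ones. In PB versus BM 1 fell, Pak1 (-1.03), which was no DEG after rescaling, when 1 of the 15 was a higher DEG instead. Among exchange factors and GTPase-activating proteins for Rac, the falls in PB versus BM numbered 3 of 14, led by Racgap1 (-2.70) and Tiam1 (-1.47), and Swap70 rose (1.74). In lung versus BM 4 of 14 fell, led by Racgap1 (-2.91) and Tiam1 (-1.80), where 36% of all genes fell. After rescaling, 3 were lower and 3 higher DEGs, where 1174 and 1563 of all 8236 genes were. In lung versus PB 1 of 13 fell, Arhgap25 (-1.22), which rescaling removed.

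Factors that act on oxidase promoters gave 1 rise, Irf1 (1.71), and 1 fall, Cebpe (-3.64), of 6 tested in PB versus BM. Cebpe, which drives specific granule formation, was at a mean FPKM of 203 in BM, 15.4 in PB and 3.73 in lung, and was the 1 lower DEG of the list in lung versus BM (-5.44). In lung versus PB 5 of 6 fell, led by Cebpe (-1.80) and Irf1 (-1.59), against 19.5% of all genes, and only Cebpe was a DEG after rescaling. None of the 9 genes of other NADPH oxidases passed the filter in sorted neutrophils, where the highest value in any library was 0.709 for Noxo1.

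**Figure D3:**
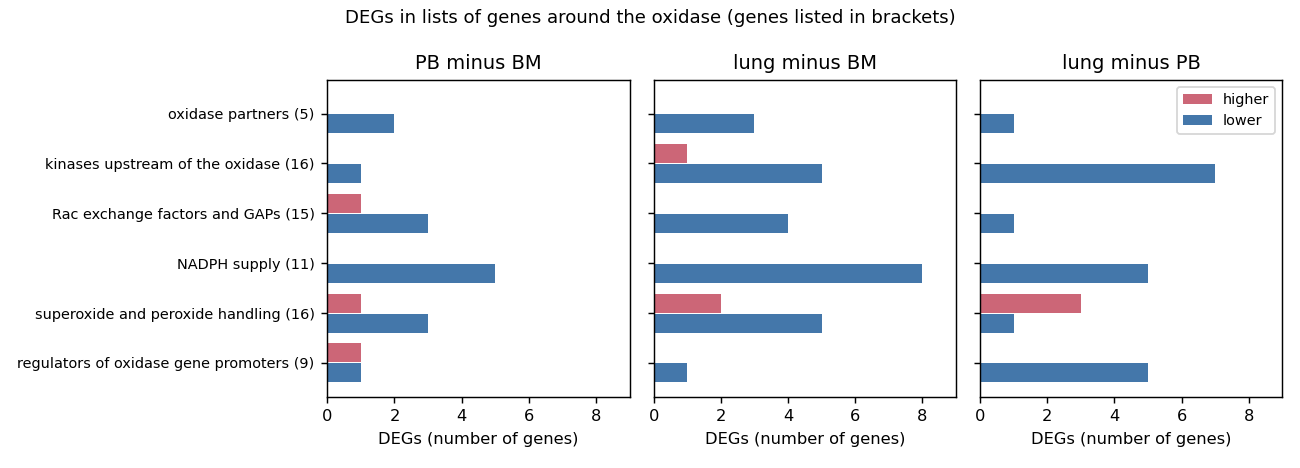
Number of DEGs that were higher or lower in each pathway list for the 3 tissue contrasts as deposited, with the genes found in the table per list in brackets. Of the NADPH supply list 5, 8 and 5 genes were lower and 0 higher, while superoxide and peroxide handling had 3 higher and 1 lower in lung versus PB. Of all genes, 14.1%, 36% and 19.5% were lower DEGs in the 3 contrasts.

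The lung versus PB comparison was made a second time in the WT mice of the Piezo1 experiment. Cybb read 13.3 and 14.0 in lung and 18.4 and 17.8 in PB (log2 difference -0.39, SE 0.06, adjusted p = 0.000455), so here the tissues did not overlap. Ncf1 was again higher in lung, at 355 and 354 against 283 and 276 (0.34, SE 0.02, adjusted p = 6.82e-06), but by less than in the tissue comparison. Ncf4 was lower in lung, at 263 and 267 against 322 and 325 (-0.28, adjusted p = 1.37e-05), where the tissue comparison had it higher. All 6 had an adjusted p below 0.05, against 89% of 7143 genes, and none was a DEG, against 34%.

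The remaining genes in those WT libraries were lower in lung. Cyba read 801 and 799 in lung and 1282 and 1266 in PB (log2 difference -0.67), Rac2 595 and 595 against 969 and 961 (-0.70), and Rac1 164 and 167 against 288 and 289 (-0.79). The median of all genes here was -0.62. After rescaling, Ncf1 became the 1 DEG at 1.07, against 22.1% of all genes, Ncf4 turned to 0.44, Cybb to 0.30, Cyba to 0.06 and Rac2 to 0.03. Thus Ncf1 was the subunit higher in lung than in PB in both experiments under either scaling. The Ncf1 to Ncf4 ratio was 1.33 to 1.35 in lung and 0.849 to 0.882 in PB. Levels of the experiments should not be set side by side, since Cyba to Cybb was 57.2 to 60.4 in WT lung here and 27.6 to 28.2 in the tissue comparison.

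Deletion of Piezo1, a mechanically gated cation channel, was then compared with WT in each tissue. In PB, Cybb read 18.4 and 17.8 in WT and 27.1 and 25.8 in Piezo1-cKO, a 1.46-fold higher level (log2 difference 0.52, SE 0.06, 95% CI 0.37 to 0.67, adjusted p = 0.000986). Both Piezo1-cKO libraries stood above both WT libraries, and the difference ranged from 0.49 to 0.56 when any one library was left out. In lung, Cybb read 13.3 and 14.0 in WT and 16.4 and 16.5 in Piezo1-cKO (0.25, SE 0.06, 95% CI 0.12 to 0.39, adjusted p = 0.00966). The lung difference was 0.15 (adjusted p = 0.0676) after rescaling, and DESeq2 on recovered reads gave 0.16 (adjusted p = 0.124). Neither tissue reached the fold threshold for a DEG.

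Several granule genes of immature neutrophils were higher together with Cybb. The summed FPKM of the 10 immature neutrophil markers was 1923 to 1934 in PB of WT and 3061 to 3197 in PB of Piezo1-cKO, and in lung 948 to 964 and 1265 to 1267. Camp, Ltf, Ngp and Chil3 were higher in Piezo1-cKO PB by 0.72, 0.63, 0.70 and 0.76 on the log2 scale and in lung by 0.56, 0.43, 0.34 and 0.76. Prtn3, a primary granule protease gene of that list with a mean FPKM under 1.5 in all 4 groups, differed the other way, with -0.87 for lung (adjusted p = 0.0162) and, for PB, -0.22 (adjusted p = 0.294). The 12 markers of monocytes and macrophages summed to 213 to 215 in WT lung and 225 to 231 in Piezo1-cKO lung, and to 355 to 357 and 335 to 339 in PB. Among them Csf1r was 0.34 higher in Piezo1-cKO lung (adjusted p = 0.000301) and Adgre1 0.20 higher (adjusted p = 0.0151), and Ear2 rose from a mean FPKM of 0.233 to 2.64 (log2 difference 1.56, adjusted p = 0.000491), while Ly6c2 was lower there (-0.30, adjusted p = 0.00173) and Csf1r lower in PB (-0.14, adjusted p = 0.0381). The 6 erythroid markers summed to 24.8 to 26.7 in PB of WT and 1011 to 1136 in PB of Piezo1-cKO. The part of these cells in the Cybb difference was not tested. The Cyba to Cybb ratio was 69.5 to 71.0 in PB of WT and 41.5 to 46.3 in PB of Piezo1-cKO, and in lung 57.2 to 60.4 and 48.4 to 49.3, so both tissues moved toward more Cybb per Cyba without overlap.

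**Figure D4:**
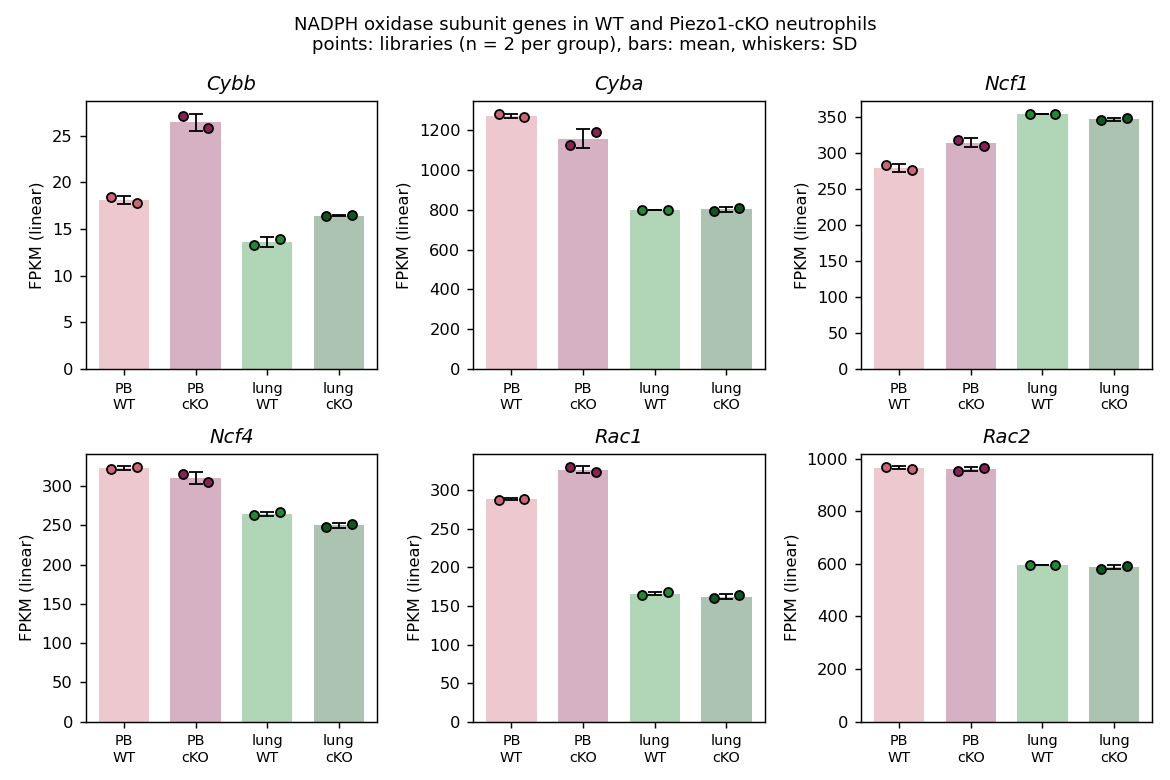
FPKM (linear axis from 0, scaled per gene) of the 6 subunit genes in the Piezo1 experiment, by tissue and genotype, with 1 point per library, a bar for the mean and whiskers for the SD (n = 2). Cybb is higher in both Piezo1-cKO groups, at means of 16.4 against 13.6 in lung and 26.4 against 18.1 in PB, and the Rac2 libraries of WT and Piezo1-cKO PB overlap.

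The other subunits differed little by genotype. In PB, Cyba read 1282 and 1266 in WT and 1125 and 1193 in Piezo1-cKO (log2 difference -0.14, SE 0.04, adjusted p = 0.0292). Ncf1 read 283 and 276 in WT and 319 and 310.2 in Piezo1-cKO (0.17, SE 0.04, adjusted p = 0.0130), and Rac1 288 and 289 against 329 and 323 (0.18, SE 0.04, adjusted p = 0.00856). For Ncf4 the PB libraries were 322 and 325 in WT and 316 and 305 in Piezo1-cKO (-0.06, 95% CI -0.15 to 0.04, adjusted p = 0.269). Rac2 read 969 and 961 against 954 and 964 (-0.01, 95% CI -0.09 to 0.07, adjusted p = 0.850) and overlapped. Thus 4 of 6 passed the adjusted p in PB, 3 of them higher, against 49.7% of 7256 genes, 26.5% being higher, and 0 of 6 were DEGs, against 3.65%. Without PB WT replicate 1 or 2, Cyba (adjusted p = 0.228 and 0.168), Ncf1 (0.0834 and 0.166) and Rac1 (0.105 and 0.0921) no longer passed the adjusted p.

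In lung, Ncf4 was the second subunit past the adjusted p, at 263 and 267 in WT and 248 and 252 in Piezo1-cKO (log2 difference -0.08, SE 0.02, adjusted p = 0.0279). It did not pass without lung WT replicate 1 or 2 or lung Piezo1-cKO replicate 1 (adjusted p = 0.0735, 0.138 and 0.102). Cyba read 801 and 799 against 794 and 811 (0.00, 95% CI -0.04 to 0.05, adjusted p = 0.884). Ncf1 read 355 and 354 against 345 and 348 (-0.03, 95% CI -0.08 to 0.02), Rac1 164 and 167 against 160.1 and 164 (-0.03, 95% CI -0.10 to 0.04), and Rac2 595 and 595 against 582 and 592 (-0.02, 95% CI -0.07 to 0.03). That is 2 of 6 by the adjusted p, against 50.7% of 6434 genes, and 0 of 6 DEGs, against 0.995%. The median gene was 0.09 higher in Piezo1-cKO lung, and after rescaling Cyba, Ncf1, Ncf4, Rac1 and Rac2 stood at -0.11 to -0.19 with adjusted p of 0.00103 to 0.00608, where 48.6% of all genes passed, 24.8% being lower. The edgeR test on recovered reads called 0 DEGs among the 6 in either tissue.

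Among partners, BC017643 went opposite ways, lower in Piezo1-cKO PB at 52.4 and 52.5 against 59.1 and 59.5 for WT (-0.17, adjusted p = 0.0231), and higher in Piezo1-cKO lung at 16.7 and 17.1 against 14.2 and 14.4 (0.23, adjusted p = 0.0122). No gene of these pathway lists was a DEG between the genotypes in lung or in PB, against 0.995% and 3.65% of all genes.

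The difference between tissues in the effect of genotype was tested as an interaction, the log2 difference of Piezo1-cKO from WT in lung minus that in PB. It was below 0 for Cybb (-0.27, SE 0.08, adjusted p = 0.0220), Ncf1 (-0.20, SE 0.04, adjusted p = 0.00439) and Rac1 (-0.21, SE 0.04, adjusted p = 0.00420), and above 0 for Cyba (0.14, SE 0.04, adjusted p = 0.0278). The difference of Piezo1-cKO from WT was thus greater in PB than in lung for Cybb, Ncf1 and Rac1. The 4 of 6 compare with 48.2% of 7560 genes, 18.5% below 0 and 29.7% above. Ncf4 (-0.03, adjusted p = 0.641) and Rac2 (-0.01, adjusted p = 0.793) did not pass. For Cyba the interaction was 0.02 (adjusted p = 0.790) after rescaling. Leaving out lung WT replicate 2, lung Piezo1-cKO replicate 1 or 2, or PB WT replicate 2 left 2 of the 4 calls, Ncf1 and Rac1, with Cybb at -0.23 to -0.27 and adjusted p of 0.0542 to 0.0741. Leaving out PB Piezo1-cKO replicate 1 lost Cybb (-0.23, adjusted p = 0.0570), and leaving out lung WT replicate 1 or PB WT replicate 1 lost Cyba (adjusted p = 0.0751 and 0.0916).

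Within Piezo1-cKO mice, all 6 genes differed between lung and PB by the adjusted p, against 84.5% of 7163 genes, and 1 was a DEG, against 30.9%. That gene was Rac1, at 160.1 and 164 in lung and 329 and 323 in PB (2.01-fold lower, SE 0.04 on the log2 scale, adjusted p = 1.90e-06), and it lay on the threshold, at -0.99 without lung Piezo1-cKO replicate 1 or PB Piezo1-cKO replicate 1 and -0.38 after rescaling. Cybb differed by -0.65, Cyba by -0.53, Ncf4 by -0.31 and Rac2 by -0.71, and Ncf1 was higher in lung by 0.14 (adjusted p = 0.0114), or 0.101 and 0.133 for that p without lung Piezo1-cKO replicate 1 or 2. After rescaling, Ncf1 was at 0.77 and Cybb at -0.06. These values share the PB and lung Piezo1-cKO libraries with the genotype comparisons.

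**Figure D5:**
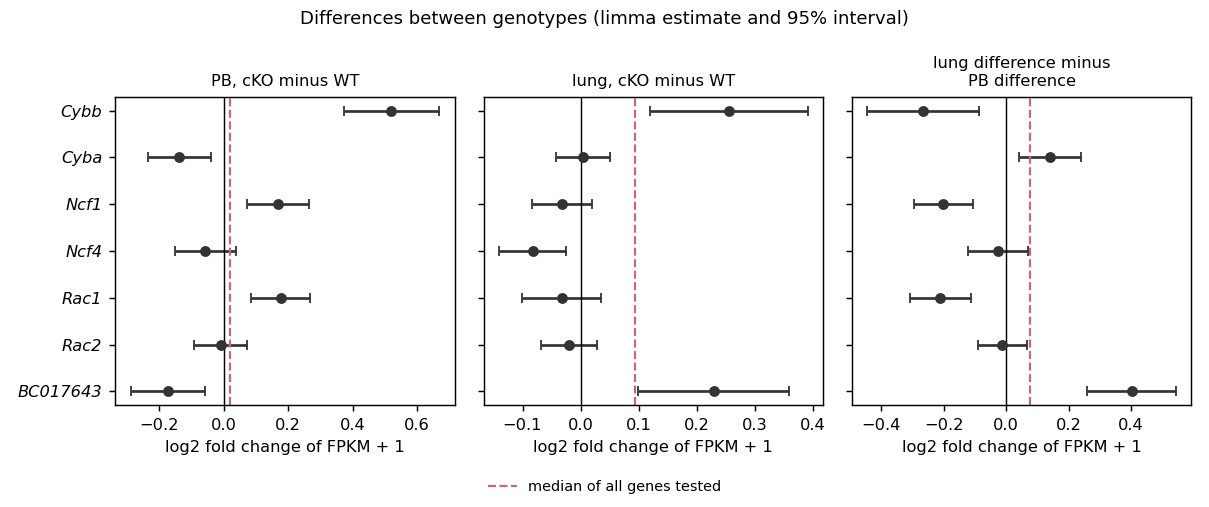
Log2 difference of FPKM + 1 with its 95% CI for the 6 subunit genes and BC017643 between Piezo1-cKO and WT in PB and in lung, and for the interaction, with a dashed line at the median of all genes tested. Among the 6 genes Cybb has the largest difference in both tissues, 0.25 in lung and 0.52 in PB, and the Rac2 intervals hold 0.

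In whole lung, where neutrophils are 1 of many cell types, the subunits were followed after antibody depletion. The 8 neutrophil markers summed to 205 to 266 in control and 40.1 to 119 in depleted lungs, although Ly6g, the antibody's target, was under 1 FPKM in all 6 libraries. Ncf4 read 8.25, 9.96 and 7.04 in control and 4.73, 5.97 and 4.78 in depleted lungs (log2 difference -0.61, SE 0.14, adjusted p = 0.196). Ncf1 read 17.1, 16.6 and 14.8 against 10.7, 13.4 and 12.2 (-0.39, SE 0.10, adjusted p = 0.236), and Rac2 32.1, 26.2 and 24.8 against 24.5, 20.9 and 14.9 (-0.47, SE 0.18, adjusted p = 0.409). For these 3 genes the groups did not overlap and limma gave an unadjusted p below 0.05. The share of all genes that met these conditions was not computed, so nothing particular to the subunits is read from them. With 13990 genes tested none of the 3 passed the adjusted p, as against 0.00715% of all genes.

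The membrane subunits and Rac1 overlapped between the whole-lung groups. Cybb read 29.6, 22.5 and 26.4 in control and 24.7, 23.4 and 15.9 in depleted lungs (log2 difference -0.30, 95% CI -0.71 to 0.11, adjusted p = 0.582), and Cyba 69.6, 80.7 and 66.9 against 65.6, 67.0 and 61.2 (-0.16, 95% CI -0.37 to 0.05, adjusted p = 0.564). Macrophages of the lung express both genes, and 12 markers of monocytes and macrophages summed to 354 to 392 in control and 324 to 380 in depleted lungs. Rac1 read 92.5, 29.4 and 92.3 in control and 89.1, 90.3 and 95.7 in depleted lungs, and its difference of 0.53 (adjusted p = 0.683) became -0.01 without control replicate 2. The members' median was -0.35, where all genes had -0.04.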

How the data were processed

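Libraries of sorted neutrophils and of whole lung were grouped by the deposited labels. The authors trimmed 150 bp paired-end reads of polyA RNA with fastp, aligned them with HISAT2 to mm10 and counted them with HTSeq, in versions not given in the sources used here. The library kit is named differently in the labels and in the methods. The values used are FPKM per gene and library, as the authors deposited them, without a fixed total per library. The tables of the Piezo1 experiment also hold, per group, the authors' mean signal (reads divided by size factors), which was used only to settle recovered reads, and the authors' fold change (a ratio), p-value and q-value per gene, which were not used. Positions are those of GRCm38 from RefSeq.

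The test was limma-trend (R 4.3.3, limma 3.58.1, robust eBayes) on log2(FPKM + 1), with only the libraries of each comparison in the fit. Genes entered it if 3 libraries (2 in the Piezo1 experiment) reached an FPKM of 1. A DEG needed adjusted p < 0.05 and a log2 difference beyond 1 (0.5 for whole lung), and the interaction needed the adjusted p alone. Groups of 2 libraries borrow their variance from all genes. Whole reads were recovered from 100% of the FPKM values of the 17 sorted libraries (tolerance 0.03 reads), and edgeR 4.0.16 and DESeq2 1.42.0 were run on them as alternatives. A count of 0 allows up to 3 reads, and such limits cover counting error only.

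The members, gene lists and motifs were chosen with earlier results of these data known. Named list genes are the DEGs without overlap between groups that rose most or fell most, up to 2 each way per list, plus BC017643. Some genes of the lists are not reported here. Genes named as changing only after rescaling were chosen after their values were seen. On simulated data for the 9 comparisons, made from 6289 to 14007 genes, 99% to 100% of 200 genes changed by 1.5 on the log2 scale were recovered, and at most 3.85% of calls were false. The simulated libraries had a fixed spread beyond counting error and no scale difference between groups. Lung libraries and PB replicate 3 depart from that setting, so the simulation gives no error rate for these data. Other alternatives were a pseudocount of 0.1, no filter, no fold threshold, all libraries in 1 fit, a replicate block and leaving out each library.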

Additional observations from a re-analysis of the deposited data

Results flagged for a closer look

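The effect of Piezo1 deletion differed between lung and PB for 4 of the 6 subunit genes, by a limma test of the interaction of genotype and tissue over the 8 libraries of the Piezo1 experiment. The log2 difference of Piezo1-cKO from WT in lung minus that in PB was -0.27 for Cybb, -0.20 for Ncf1, -0.21 for Rac1 and 0.14 for Cyba, with adjusted p of 0.0220, 0.00439, 0.00420 and 0.0278. For Cyba the value was 0.02 (adjusted p = 0.790) after rescaling, and leaving out any one library other than PB Piezo1-cKO replicate 2 lost the Cybb call, the Cyba call or both, while Ncf1 and Rac1 passed each time. Of all 7560 genes tested, 48.2% passed the same threshold. Summed erythroid markers were 1011 to 1136 FPKM in PB of Piezo1-cKO and at most 26.7 in the other groups of that experiment, and their part in these differences was not tested.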

How the results depend on the processing

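Of the alternatives computed for single subunit genes, 582 kept direction and side of the threshold, 37 gained a call, 31 lost one and 46 turned the direction, and of those for the counts of DEGs 92 stayed within 1.5 times and 24 did not. Cybb and Ncf1 between PB and BM were DEGs under all alternatives run, as were Cybb between lung and BM and Ncf1 between lung and PB. The median gene of the lung libraries lies low as deposited, and the turned directions came almost all from the 3 settings that scale libraries differently, given here in the order median-ratio rescaling, edgeR and DESeq2 on recovered reads.

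For lung versus PB in the tissue comparison these gave 0.42, 0.42 and 0.44 for Cybb and 0.17, 0.17 and 0.19 for Cyba. For lung versus BM they gave 0.35, 0.31 and 0.36 for Ncf1, 0.34, 0.31 and 0.35 for Ncf4, 0.23, 0.20 and 0.25 for Rac1, and 0.040, 0.0063 and 0.056 for Rac2. For PB versus BM they gave 0.045, 0.028 and 0.044 for Rac2. For Piezo1-cKO versus WT in lung Cyba was -0.11 in all 3. For WT lung versus PB in the Piezo1 experiment they gave 0.30, 0.31 and 0.33 for Cybb, 0.059, 0.049 and 0.074 for Cyba, 0.44, 0.43 and 0.46 for Ncf4, and 0.032, 0.022 and 0.047 for Rac2. For Piezo1-cKO lung versus PB they gave 0.098, 0.089 and 0.12 for Cyba and 0.32, 0.31 and 0.34 for Ncf4. With 1 library left out, the direction turned for Cybb in lung versus PB (-0.28 to 0.0039, the latter without PB replicate 3), Cyba in Piezo1-cKO versus WT lung (-0.011 to 0.019, the former without lung Piezo1-cKO replicate 2), Rac2 in the interaction (-0.025 to 0.00081, the latter without lung Piezo1-cKO replicate 1) and Rac1 in whole lung (-0.012 to 0.80, the former without control replicate 2).

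Without the fold threshold the DEGs among the 6 genes numbered 5 for lung versus PB, 6 for lung versus BM, 5 for PB versus BM, 2 and 4 for Piezo1-cKO versus WT in lung and PB, and 6 for lung versus PB in WT and in Piezo1-cKO, while the fold threshold left 0 in the interaction. Each of the 3 scaling settings gave 1 for lung versus BM, 1 for WT lung versus PB and 0 for Piezo1-cKO lung versus PB. After median-ratio rescaling, 2737 of 8236, 1576 of 7143 and 1522 of 7163 genes were DEGs in those comparisons. With any one library left out, the counts were 1 to 2 for lung versus PB, 0 to 1 for Piezo1-cKO lung versus PB and 2 to 4 for the interaction. Over all genes, edgeR called 345 and 735 DEGs for Piezo1-cKO versus WT in lung and PB and DESeq2 311 and 689, where limma called 64 and 265, and a pseudocount of 0.1 gave 332 and 672. The cause was not tested. In the other comparisons edgeR called 1930 (lung versus PB), 3651 (lung versus BM), 2423 (PB versus BM), 2325 and 2245 (lung versus PB in WT and in Piezo1-cKO).

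Correlations of same-numbered deviations from the group mean ran from -0.0890 to 0.0789. Values near 0 do not settle whether equal replicate numbers pair the libraries. With 2 libraries a group, both values are the same by construction. A fit with the replicate number as a block left 2 DEGs in each of the 3 tissue comparisons, 0 for Piezo1-cKO versus WT in lung and PB, 0 and 1 for lung versus PB in WT and Piezo1-cKO, 4 in the interaction and 0 in whole lung, so the block changed no count, and with 3 libraries a group not every library correlated best with its own number. Over all genes in whole lung the block called 5 genes where 1 was called without it. Between the libraries of a group in the Piezo1 experiment the chi-square per degree of freedom was 1.99 to 5.67, so their spread was above counting error.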
